A study of Homo sapiens with 9 samples.

Results

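The imprinted DLK1-DIO3 region of human chromosome 14 carries a large microRNA cluster, and 51 of its hairpins were listed by name for this description. Of these, 50 were rows of the hairpin count table, which holds 1485 hairpins in all, and hsa-mir-300 was not among the rows used here. MicroRNAs were counted per hairpin in small RNA libraries from HEK293E and K562 cells that had received short interfering RNAs (siRNAs) against ERH or control siRNAs. HEK293E is an established line derived from embryonic kidney cells that makes an Epstein-Barr virus protein, and K562 is an established line derived from a chronic myeloid leukaemia. Both lines were otherwise described without any allele or drug treatment. HEK293E cells were transfected with a cationic lipid on days 0 and 3 and harvested on day 5, with siGFP, siControl or siERH-3 in 2 replicates each and with siERH-5 in replicate 2 only. K562 cells were electroporated once and harvested after 4 days, with 1 siGFP and 1 siERH-5 library. siGFP and siControl served as the controls, and siERH-3 and siERH-5 are 2 siRNAs against ERH. The labels do not say whether replicates were separate cultures, so p-values measure the spread between these libraries, which may be technical. ERH messenger RNA was not measured here, so the extent of the knockdown is not known from these libraries.

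MicroRNA hairpins are cut out of longer primary transcripts by Microprocessor, a complex of the nuclease DROSHA and its partner DGCR8, and DICER then releases the mature strands. ERH is a small conserved protein that binds DGCR8 and is known to aid the processing of certain weak hairpins that lie beside stronger ones in a cluster. The DLK1-DIO3 microRNAs come from long non-coding transcripts of the maternally inherited chromosome, among them MEG8 and MEG9. They are known for high levels in brain, placenta and embryonic tissue and for low levels in many adult tissues.

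All 50 hairpins lie on the plus strand within 197.742 kb of chromosome 14, chr14:100869060-101066801 in GRCh38. They form a proximal group of 9 hairpins from hsa-mir-493 to hsa-mir-370 and a distal run of 41 hairpins from hsa-mir-379 to hsa-mir-656. In the GENCODE 29 annotation, the 9 proximal hairpins lie within the non-coding gene AL117190.1, and 5 of them (hsa-mir-431, hsa-mir-433, hsa-mir-127, hsa-mir-432 and hsa-mir-136) lie opposite an exon of RTL1, the paternally expressed retrotransposon-like gene. MEG8 holds 14 of the 50 hairpins and MIR381HG holds 6, and 34 have an annotated host gene on their own strand. The median GC content of the hairpins was 41.9%, against 50.8% over the 1480 hairpins of the table with an annotated sequence.

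The mature strands below are those of most hairpins that the HEK293E results turn on, and of hsa-mir-539. Their seeds (bases 2 to 8, the stretch that pairs with target messenger RNAs) are in capitals, 5′ to 3′, as RefSeq gives them for GRCh38.p14. They are shown because several hairpins with higher counts in siERH libraries have related 3p strands. The strand hsa-miR-539-3p is shown for its seed only, since hsa-mir-539 had 3 counts with siERH-5 and none in any other HEK293E library.
hsa-miR-376a-3p: aUCAUAGAggaaaauccacgu
hsa-miR-376b-3p: aUCAUAGAggaaaauccauguu
hsa-miR-376c-3p: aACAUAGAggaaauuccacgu
hsa-miR-154-3p: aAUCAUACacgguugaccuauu
hsa-miR-487a-3p: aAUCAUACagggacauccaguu
hsa-miR-485-3p: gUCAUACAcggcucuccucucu
hsa-miR-539-3p: aUCAUACAaggacaauuucuuu
hsa-miR-379-3p: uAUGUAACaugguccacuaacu
hsa-miR-411-3p: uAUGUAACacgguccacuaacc
hsa-miR-369-3p: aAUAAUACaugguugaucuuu
hsa-miR-655-3p: aUAAUACAugguuaaccucuuu
hsa-miR-543: aAACAUUCgcggugcacuucuu
hsa-miR-381-3p: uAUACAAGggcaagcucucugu
hsa-miR-544a: aUUCUGCAuuuuuagcaaguuc

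Shown for contrast are mature strands of 3 proximal hairpins that were among the most abundant of the cluster in K562.
hsa-miR-127-3p: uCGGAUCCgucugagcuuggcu
hsa-miR-136-5p: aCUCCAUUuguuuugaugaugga
hsa-miR-337-3p: cUCCUAUAugaugccuuucuuc

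The 50 hairpins give 89 mature names with 79 distinct seeds, and 9 seeds are shared by 2 or more mature names of the cluster. The seed UCAUAGA is common to miR-376a-3p and miR-376b-3p, AUCAUAC to miR-154-3p and miR-487a-3p, UCAUACA to miR-485-3p and miR-539-3p, and AUGUAAC to miR-379-3p and miR-411-3p. None of these 4 seeds occurred in another human mature microRNA of the RefSeq sequences used. The counts were deposited per hairpin, so the 5p and 3p strands cannot be separated, and the sequences identify the hairpins without showing which strand was counted.

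The total count per library ranged from 2609929 to 3320017, so 3 counts, taken here as the floor, correspond to between 0.904 and 1.15 CPM (counts per 1000000 counts of the library total). In HEK293E the cluster was near that level. The 4 control libraries detected 32 (siGFP replicate 1), 27 (siControl replicate 1), 27 (siGFP replicate 2) and 25 (siControl replicate 2) of the 50 hairpins with at least 1 count. The siERH libraries detected 37 (siERH-3 replicate 1), 35 (siERH-3 replicate 2) and 39 (siERH-5 replicate 2). All 3 siERH libraries thus detected more members than any control library. Over all 1485 hairpins, the share detected was 85.1% (siGFP replicate 1), 83.4% (siControl replicate 1), 81.3% (siGFP replicate 2) and 82.3% (siControl replicate 2) in the controls. It was 87.3% (siERH-3 replicate 1), 86.7% (siERH-3 replicate 2) and 86.8% (siERH-5 replicate 2) after ERH siRNAs. In K562 both libraries detected 46 of the 50, where 71.4% (siGFP) and 78.3% (siERH-5) of all hairpins were detected.

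Pooled over the 50 hairpins, the siGFP and siControl libraries of HEK293E held 91 and 69 counts in replicate 1 and 51 and 56 in replicate 2. The siERH-3 libraries held 271 and 276 counts in replicates 1 and 2, which is 87.7 and 88.9 CPM of the library total, and the siERH-5 library held 160 CPM. The controls stood at 18.3 to 28.01 CPM, so the pooled level was higher in each siERH library than in any control, and the groups did not overlap. The mean was 22.2 ± 4.36 CPM of the library total (SD, n = 4) in the controls and 112 ± 41.2 (SD, n = 3) in the siERH libraries. The ratio of the pooled rates was 5.04, with an exact 95% interval of 4.40 to 5.78 that covers counting error only. No test was made on this sum, since the hairpins were listed with results of these libraries known.

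**Figure D1:**
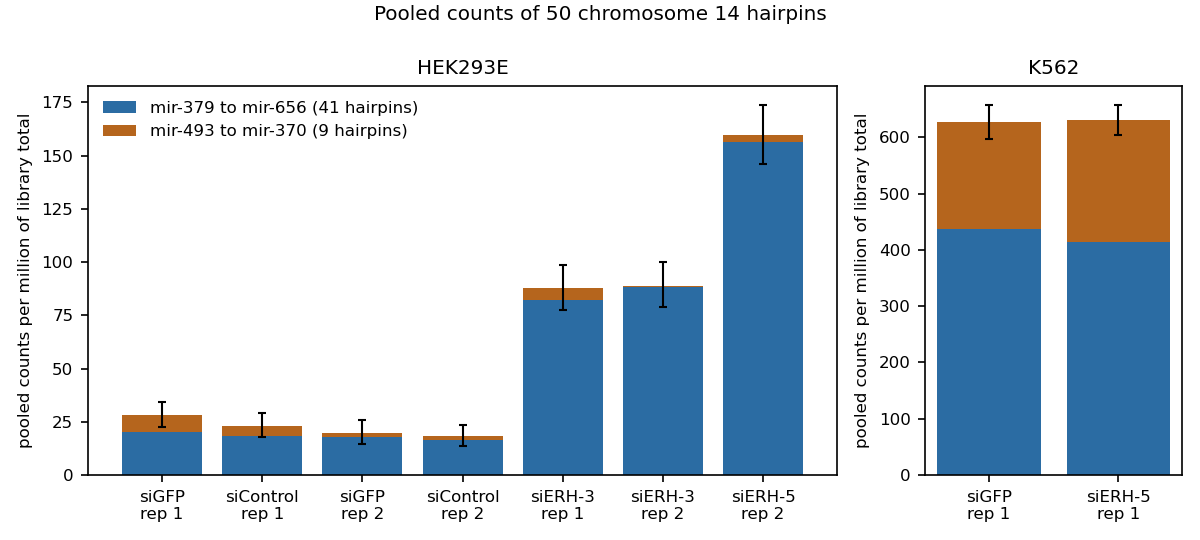
Pooled counts of the 50 hairpins as CPM of the library total (vertical axes start at 0 and differ in scale between HEK293E and K562), split into the distal run (blue) and the proximal group (brown), with exact 95% binomial intervals of the total that cover counting error only. The 3 HEK293E siERH libraries stand at 87.7, 88.9 and 160 CPM, above the 4 controls at 18.3 to 28.01, and the 2 K562 libraries stand at 627 and 631.

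The higher counts lay in the distal run. The 41 distal hairpins held 65, 55, 47 and 51 counts in siGFP replicate 1, siControl replicate 1, siGFP replicate 2 and siControl replicate 2. They held 254 and 274 in the siERH-3 libraries and 508 in the siERH-5 library, and the pooled rate was 6.004 times that of the controls (5.18 to 6.98). The 9 proximal hairpins held 26, 14, 4 and 5 counts in the same controls, and 17, 2 and 10 counts in siERH-3 replicate 1, siERH-3 replicate 2 and siERH-5. Their groups overlapped, with a ratio of 0.748 (0.455 to 1.21). The proximal share of the cluster's counts was 7.84% to 28.6% in the controls and 0.725% to 6.27% in the siERH libraries.

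Hairpins of both groups were also tested one by one with edgeR's quasi-likelihood test on the counts, fitted across all hairpins with Benjamini-Hochberg adjustment at 0.05. With a filter at a mean of 10 counts, 773 hairpins were tested, of which 23.8% were higher and 16.2% lower with siERH. Only 4 members passed that filter (hsa-mir-544a, hsa-mir-485, hsa-mir-376c and hsa-mir-369), and all 4 were higher. They passed through their counts in siERH libraries, so this count is given as a description.

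The hairpin hsa-mir-544a (chr14:101048658-101048748, in an intron of MIR381HG) was close to absent from the controls, with 0 counts in 3 of them and 1 count in siGFP replicate 2. It had 28 and 67 counts in siERH-3 replicates 1 and 2 and 28 counts with siERH-5. The groups did not overlap, and both siRNAs against ERH gave counts far above any control. The pooled rate was 155 times that of the controls, with a counting interval of 27.4 to 6187 that reflects the single control count. Its log2 fold change was 6.57 ± 0.76 (SE), with an adjusted p of 0.000101 in edgeR's quasi-likelihood test.

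The next member, hsa-mir-485 (chr14:101055419-101055491), gives miR-485, which is known to target synaptic messenger RNAs. It had 3 and 4 counts in siGFP replicates 1 and 2, 0 and 3 in siControl replicates 1 and 2, 25 and 27 in siERH-3 replicates 1 and 2, and 80 with siERH-5. All 3 siERH libraries were above all controls, and siERH-5 was the highest. The log2 fold change was 3.80 ± 0.62 (edgeR, adjusted p = 0.00108).

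The hairpin hsa-mir-376c (chr14:101039690-101039755) had 5 and 2 counts in siGFP replicates 1 and 2, 4 and 5 in siControl replicates 1 and 2, 23 and 15 in siERH-3 replicates 1 and 2, and 43 with siERH-5. Here too the groups were apart, with a log2 fold change of 2.46 ± 0.43 (edgeR, adjusted p = 0.00166). It belongs to the miR-376 family, whose primary transcripts are known substrates of adenosine-to-inosine editing. The hairpin hsa-mir-369 (chr14:101065598-101065667, in an intron of MEG9) had 7 and 1 counts in siGFP replicates 1 and 2, 9 and 7 in siControl replicates 1 and 2, 41 and 12 in siERH-3 replicates 1 and 2, and 18 with siERH-5. Its siERH-3 replicate 1 library was the highest and the nearest siERH and control counts were 12 and 9. The log2 fold change was 1.71 ± 0.53 (edgeR, adjusted p = 0.0262). That call was lost without siGFP replicate 1, with the GC trend removed, and against either control siRNA alone. Without siERH-3 replicate 1, hsa-mir-369 did not pass the filter, and the unfiltered fit without that library did not call it.

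Without the filter, 1454 hairpins were tested, of which 13.2% were higher and 9.7% lower, and 47 members were among them. Of these 47, 16 rose and none fell. The fold change was above 0 for 42 and below 0 for 5, and the median log2 fold change was 1.50, beside 0.04 over all hairpins tested. Restricted to the hairpins below the filter, 12 of 43 members were higher and 0 lower, where 4.41% of the 681 such hairpins were higher and 1.32% lower. With a filter at a mean of 3 counts, 15 of 20 members were higher and none lower, where 20.1% of hairpins were higher and 12.4% lower, again with a filter that siERH counts help to pass. In a fit that pairs the libraries by replicate number, 4 members were higher with the filter at a mean of 10 counts, where 28.1% of hairpins were higher and 20.6% lower, and 17 without a filter, where 16.4% were higher and 14% lower, with no member lower in either. All 16 lie in the distal run. Of the 8 proximal hairpins tested, none was called in either direction, 5 had a fold change above 0, and their median was 0.05. Apart from hsa-mir-127, with 51 counts, each of these held only 2 to 8 counts over the 7 HEK293E libraries. With so few counts, the lack of calls does not show that the proximal hairpins were unchanged.

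**Figure D2:**
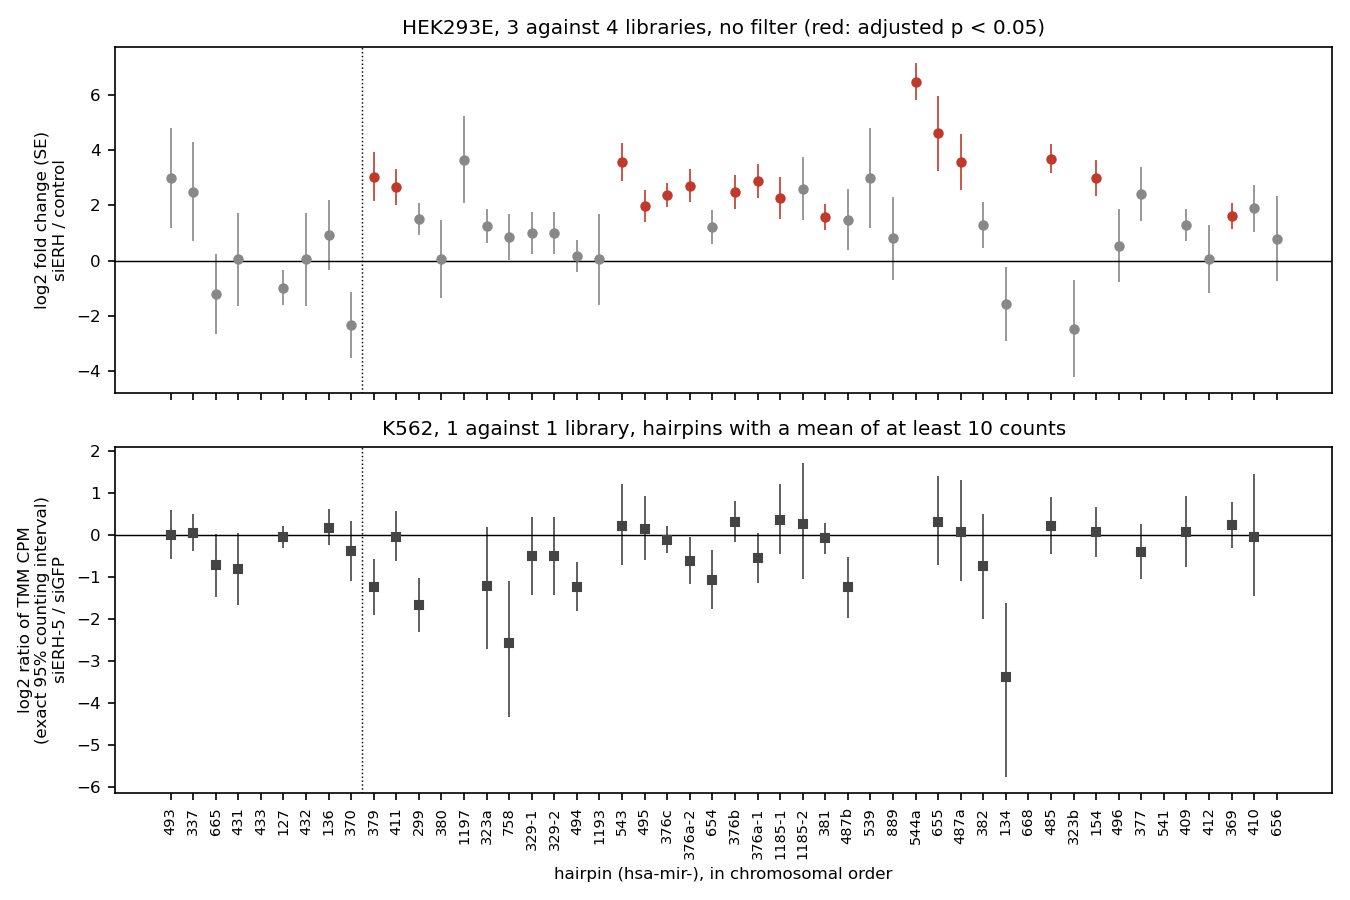
Log2 fold change of siERH over control in HEK293E (upper panel, edgeR without a filter, bars are SE, red marks an adjusted p under 0.05) and log2 ratio of siERH-5 over siGFP in K562 (lower panel, TMM-scaled CPM with no pseudocount, bars are exact 95% counting intervals) for the hairpins in chromosomal order, with a dotted line between the proximal and distal groups. The 16 red points are all to the right of the dotted line and above 0, whereas, of the 36 K562 intervals drawn (members whose mean count was 10 or more), none lies wholly above 0 and 8 lie wholly below it (2 and 7 on library totals in place of TMM).

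Among the 16 were the hsa-mir-376 hairpins. The counts of hsa-mir-376a-1 were 1 and 0 in siGFP replicates 1 and 2, 4 and 2 in siControl replicates 1 and 2, 13 and 8 in siERH-3 replicates 1 and 2, and 32 with siERH-5 (log2 fold change 2.89 ± 0.62, edgeR without a filter, adjusted p = 0.00119). The hairpin hsa-mir-376a-2 had 2, 0, 4, 2, 14, 7 and 32 counts in the same order. It makes the same 3p strand as hsa-mir-376a-1, so reads of that strand cannot be assigned to either hairpin, and the pair does not count as 2 independent members. The hairpin hsa-mir-376b had 4, 4, 0, 1, 8, 10 and 33 counts in that order, with a log2 fold change of 2.49 ± 0.62 (edgeR without a filter, adjusted p = 0.00442).

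The first hairpins of the distal run, hsa-mir-379 and hsa-mir-411, share the AUGUAAC seed in their 3p strands. The former had 0 and 1 counts in siGFP and siControl of replicate 1, 0 and 1 in those of replicate 2, 3 and 4 in the siERH-3 libraries and 12 with siERH-5. The latter had 2 and 1 counts, 1 and 1 counts, 5 and 7 counts and 21 counts in the same order. In both, the 2 siERH-3 libraries were a few counts above the controls and siERH-5 was the highest. The log2 fold changes were 3.04 ± 0.89 for hsa-mir-379 and 2.67 ± 0.66 for hsa-mir-411 (edgeR without a filter, adjusted p = 0.0139 and 0.00399).

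The hairpins hsa-mir-154 and hsa-mir-487a share the AUCAUAC seed. Control counts of hsa-mir-154 were 1 and 2 with siGFP and 0 and 1 with siControl, and its siERH counts were 9 and 11 with siERH-3 and 14 with siERH-5. Its siERH libraries thus lay close together, with a log2 fold change of 3.01 ± 0.66 (edgeR without a filter, adjusted p = 0.0014). The counts of hsa-mir-487a were 1 and 0 with siGFP, 0 and 0 with siControl, 4 and 2 with siERH-3 and 10 with siERH-5.

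Of the others, hsa-mir-543 had 1 and 1 counts with siGFP, 1 and 0 with siControl, 6 and 13 with siERH-3 and 20 with siERH-5 (log2 fold change 3.57 ± 0.69, edgeR without a filter, adjusted p = 0.000396). The hairpin hsa-mir-381, whose host transcript is MIR381HG, had 3 and 3, 4 and 5, 13 and 11, and 20 counts in that order (1.57 ± 0.47, adjusted p = 0.0147). The hairpin hsa-mir-495 had 2 and 2, 1 and 3, 5 and 11, and 16 counts (1.99 ± 0.59, adjusted p = 0.0146). In each of these 3 hairpins the lowest siERH count was above the highest control count. The hairpin hsa-mir-1185-1 had 1 and 2, 0 and 2, 3 and 5, and 17 counts, so that its siERH-3 replicate 1 library was only 1 count above the highest control. Its near-copy hsa-mir-1185-2 had 1 and 0, 0 and 0, 1 and 3, and 4 counts and was not called, and the 2 share a 5p strand.

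**Figure D3:**
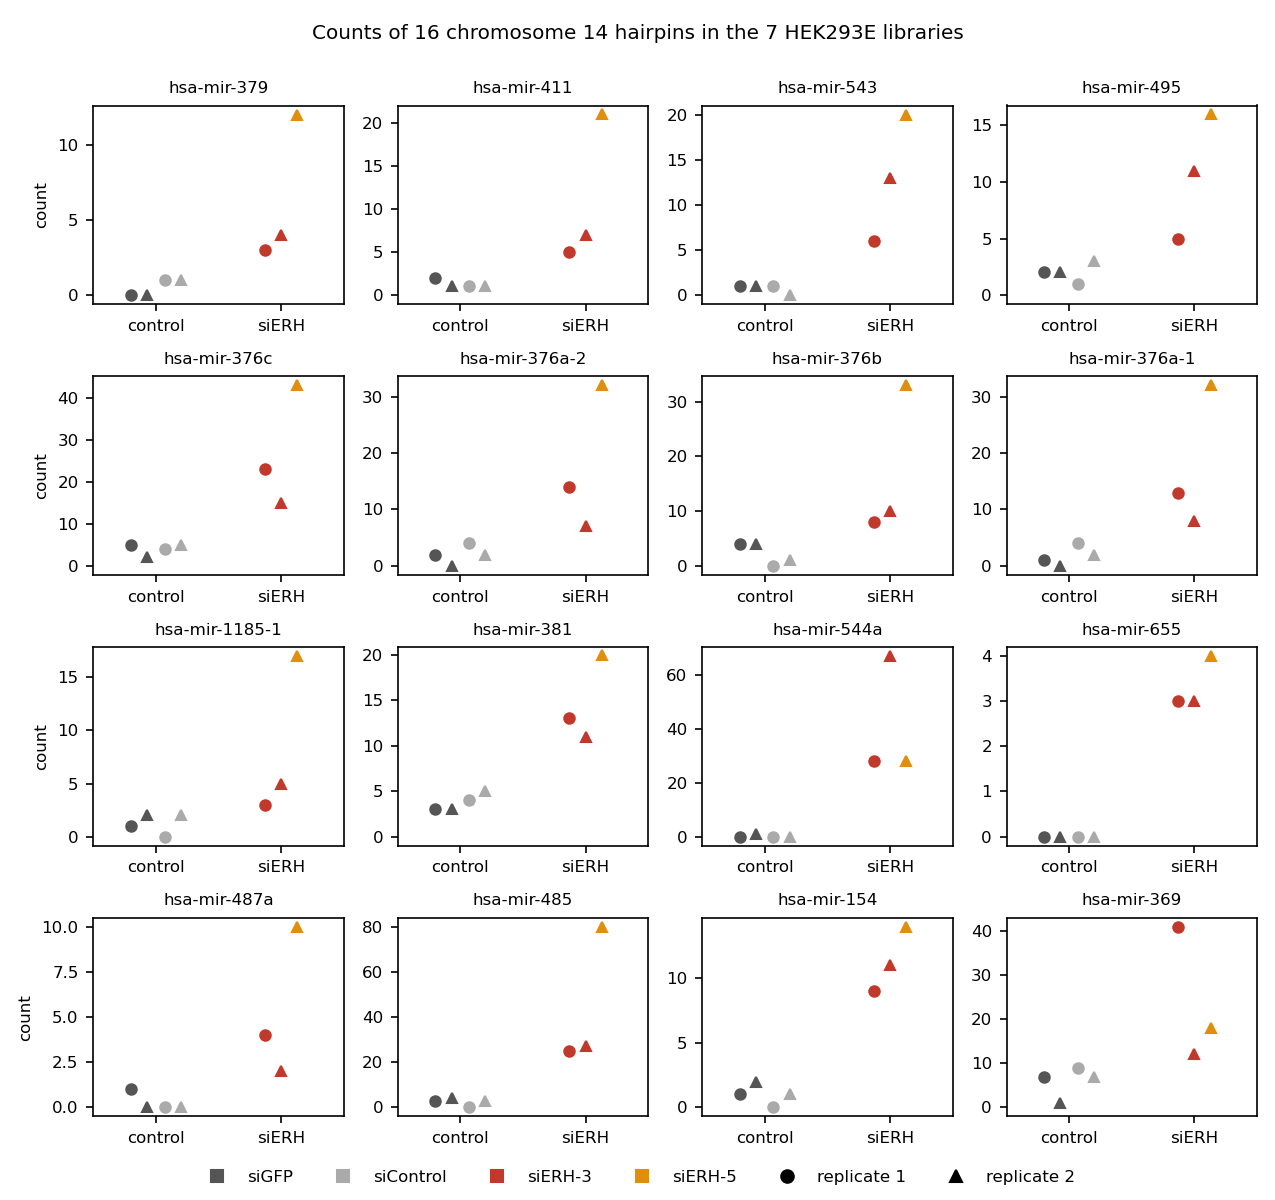
Counts of the 16 hairpins called higher without a filter, one panel each with its own vertical axis, in the 4 control and 3 siERH libraries of HEK293E (circles, replicate 1, triangles, replicate 2, colours, siRNAs). In every panel the siERH points lie above the control points, and the siERH-5 point is the highest in all but hsa-mir-544a, where siERH-3 replicate 2 has 67 counts, and hsa-mir-369, where siERH-3 replicate 1 has 41.

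Without the siERH-5 library, which leaves 2 siERH libraries in place of 3, 5 members were higher (hsa-mir-544a, hsa-mir-485, hsa-mir-376c, hsa-mir-543 and hsa-mir-154), where 8.08% of all tested hairpins were higher and 6.48% lower, and the other 11 missed the threshold, with adjusted p from 0.0519 (hsa-mir-369) to 0.36 (hsa-mir-1185-1). The log2 fold changes of these 11 stayed above 0, from 1.28 for hsa-mir-1185-1 (2.26 with siERH-5) to 4.45 for hsa-mir-655 (4.61 with it), and that of hsa-mir-369 was 1.83 (1.64 with it). The hairpin hsa-mir-655 had no count in any control, so the size of its log2 fold change has no measured control level behind it. Leaving out any other single library gave 15 to 17 members. The pooled rate with siERH-5 was 8.47 times (6.87 to 10.5) that of the replicate 2 controls, and with siERH-3 it was 4.71 times (3.76 to 5.95) in replicate 2 and 3.43 times (2.81 to 4.19) in replicate 1. With siERH-3 alone against the controls, 3 members were tested with the filter and all 3 were higher, where 19.1% of the 759 hairpins were higher and 11.5% lower. They passed through their siERH-3 counts, so the count is a description. That comparison without a filter is the fit without siERH-5 just given. At a mean of 3 counts, 9 of 17 members were higher with siERH-3, where 14.9% of hairpins were higher and 8.65% lower, and these, too, depend on a filter that siERH counts help to pass. Paired by replicate number, 3 were higher with the filter, where 26.4% were higher and 18.7% lower, and 9 without it, where 14.7% were higher and 12.3% lower. No member was lower in any of these fits. siERH-5 has 1 library in HEK293E, so its difference from siERH-3 has no replicate check. The siERH-5 library was at least 2-fold above the mean of its controls for all 5 members with a mean of at least 10 counts there, where 15.7% of 760 hairpins were at least that much higher and 7.5% lower. They reached that mean through the siERH-5 library itself, so this count, too, is a description only.

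Set side by side library by library, all 3 siERH libraries were above all 4 controls in 23 of the 47 members with a HEK293E count, where 18.2% of hairpins with a count were, and in no member were they all below, where 11.8% were. All 23 are distal. Such a count of separated libraries was not made between the 2 control siRNAs. In the contrast of siControl against siGFP, with 2 libraries each, 730 hairpins were tested and none was called by edgeR. Of these, 24 had an unadjusted p under 0.05 in edgeR, and DESeq2 called 2 higher and 2 lower. No member passed the filter. Without the filter, 42 members were tested in that contrast and none was called or had an unadjusted p under 0.05, where 0.144% of hairpins were higher and 0.144% lower. Paired by replicate number, 9.86% of hairpins were higher and 8.36% lower with siControl, and no member was among those tested.

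Members that appeared with siERH were few. No control count and at least 3 siERH counts were found for 4 members, hsa-mir-493, hsa-mir-1197, hsa-mir-539 and hsa-mir-655, where 1.01% of all hairpins did so, and no member was lost by the same rule, where 0.404% were. The hairpin hsa-mir-655 had 3, 3 and 4 counts in the siERH libraries. Its pooled rate was 4.21 times that of 3 counts over the 4 control libraries, taken as the floor. The hairpin hsa-mir-1197 had 1, 1 and 3 counts, or 2.11 times that floor, and was not called in any unfiltered fit. Both ratios leave out the counting error of the siERH counts, so they are not lower limits. The counts of hsa-mir-493 and hsa-mir-539 came from 1 library each, 3 counts in siERH-3 replicate 1 and 3 counts with siERH-5. Over the group, 42 members were detected in at least 1 control library and 46 in at least 1 siERH library, 14 in all 4 controls and 30 in all 3 siERH libraries. Presence in all 3 libraries is easier to reach than in all 4. The share over all hairpins was not taken for these counts, so they are a description only. The hairpins hsa-mir-433, hsa-mir-668 and hsa-mir-541 had no count in any HEK293E library.

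The proximal hairpin with the most counts, hsa-mir-127, followed the replicate rather than the siRNA. This microRNA lies antisense to RTL1 and is known as a repressor of it. It had 20, 11 and 11 counts in siGFP, siControl and siERH-3 of replicate 1, and 1, 3, 1 and 4 in siGFP, siControl, siERH-3 and siERH-5 of replicate 2. The ranges of siERH and control libraries overlapped (log2 fold change −0.97 ± 0.65, edgeR without a filter, adjusted p = 0.313). Over the 5 hairpins opposite RTL1, 4 were tested without the filter and none was called. Those tested other than hsa-mir-127 held only 2 to 6 counts each over the HEK293E libraries.

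**Figure D4:**
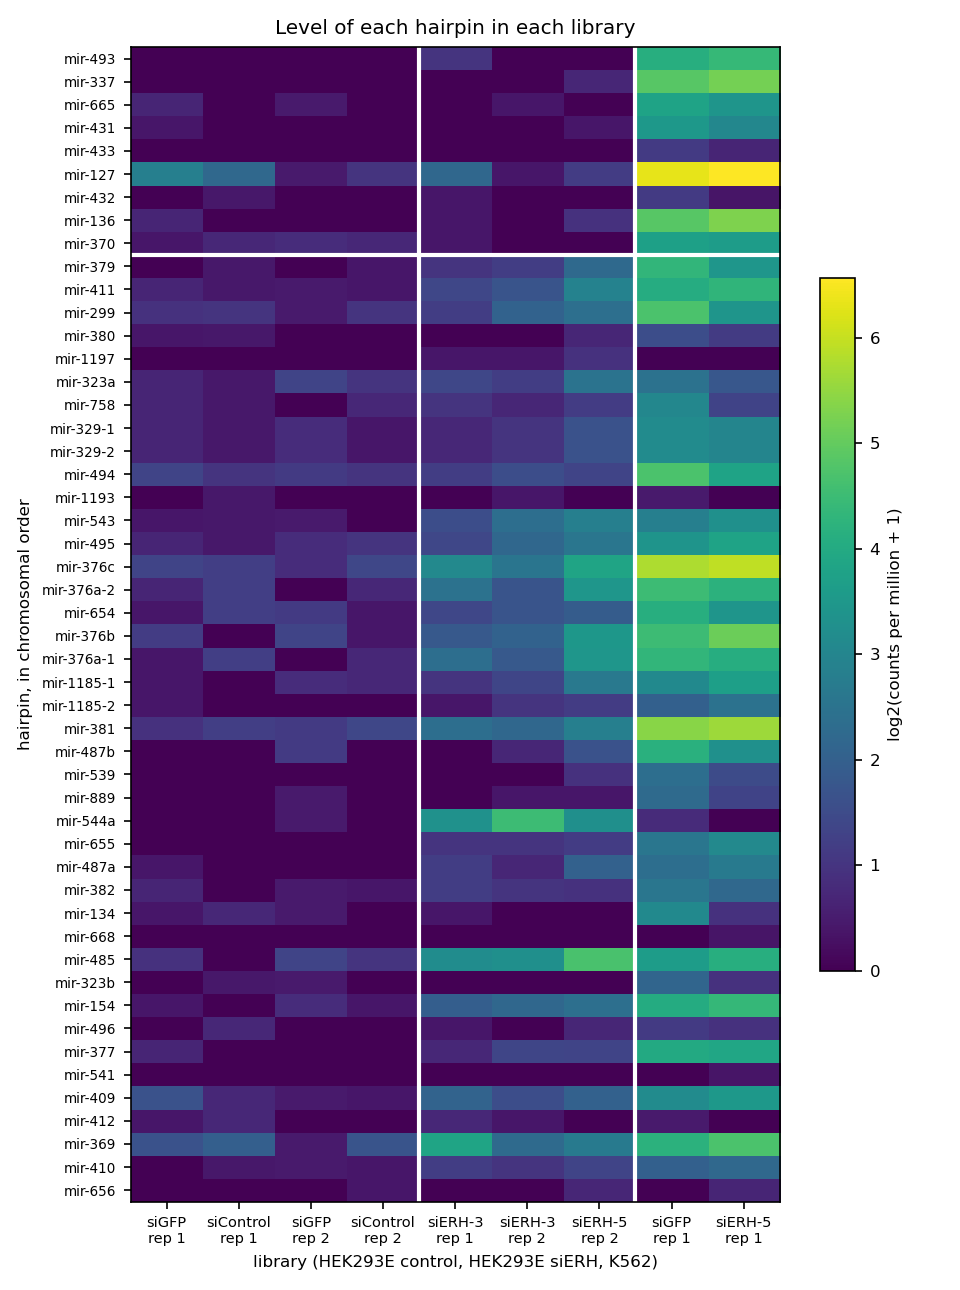
Level of each of the 50 hairpins (rows, in chromosomal order, with a white line below hsa-mir-370) in each of the 9 libraries (columns), as log2 of CPM of the library total plus 1. Proximal rows are dark in all HEK293E libraries other than for hsa-mir-127, many distal rows are brighter in the 3 siERH columns, and hsa-mir-544a is bright only there, with 2 and 0 counts in K562.

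Hairpins known to mark blood cells were followed in the same HEK293E libraries, since K562 is of blood origin. Of 4 such hairpins, hsa-mir-142 had 1327 counts over the controls and 2360 over the siERH libraries and was higher (log2 fold change 0.92, edgeR, adjusted p = 0.0489), and its part in the result was not tested. Neither hsa-mir-144, with 226 and 198 counts (log2 fold change −0.04, edgeR, adjusted p = 0.885), nor hsa-mir-451a, with 307 and 219 (−0.32, adjusted p = 0.328), was called. These sums are over 4 control and 3 siERH libraries, so they are not rates. The hairpin hsa-mir-223, which did not pass the filter, had 28 and 12 counts. Of its control counts, 25 came from siGFP replicate 2, and each other control had 1. Its siERH counts were 2 and 5 with siERH-3 and 5 with siERH-5, above every control but siGFP replicate 2. The direction for hsa-mir-223 thus depends on that library. In siGFP-treated K562 these 4 hairpins stood at 7907 to 66697 CPM of the library total, and at 2.64 to 114 CPM in the HEK293E controls. Of 6 hairpins that lie in HOX loci or are known from neural cells, hsa-mir-124-1 (log2 fold change −2.99, adjusted p = 5.53e-06) and hsa-mir-615 (−0.67, adjusted p = 0.0135) were lower with siERH in edgeR's test and the other 4 did not pass it. Their part in the result was not tested either. The cluster's low GC content was examined as well, and with the GC trend removed 12 of the 16 calls remained, losing hsa-mir-495, hsa-mir-1185-1, hsa-mir-381 and hsa-mir-369. In that unfiltered fit, 145 of 1454 hairpins were higher and 162 lower, where 192 and 141 were with the trend left in. The members' median log2 fold change was 1.27, where it was 1.50 with the trend left in.

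The other large imprinted microRNA cluster, on chromosome 19, was set beside it. Its 46 hairpins in the table held 74 to 143 counts in the controls and 204 to 417 in the siERH libraries. Those counts, too, were higher in each siERH library than in any control. Without the filter, 3 of the 46 were called higher and none lower, with a median log2 fold change of 1.03. Over all hairpins 13.2% were higher in that fit, and 4.41% of the 681 below a mean of 10 counts. Only 2 of the 46 reached that mean, and neither was called in the filtered fit, so the lower share is the closer background. The 3 calls became 0 without siERH-5 and 7 on library totals. Leaving out one other library gave 2 to 5 calls, the replicate pairing gave 5, and DESeq2 gave 1. Of 5 hairpins of other imprinted genes, none was called. Whether the chromosome 14 and chromosome 19 clusters differ was not tested.

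K562 carried far more of the cluster than HEK293E. With siGFP, the pooled count was 1639 in K562, or 627 CPM, against 91 and 51 counts in HEK293E, a ratio of rates of 25.9 (21.8 to 30.9). All 21 members with enough counts to be compared were at least 2-fold higher in K562, where 23.8% of 741 hairpins were and 31.2% were at least 2-fold lower. They reached a mean of 10 counts through K562, so that count was set by the filter and is a description only. Their log2 ratios of TMM-scaled CPM plus 1 ran from 3.37 to 5.62. The ratio was 36.98 for the proximal and 22.9 for the distal hairpins. One K562 library was compared with 2 of HEK293E, delivery and harvest day differed between the lines, and no test was made. The scaling factors also differed between the lines, 0.591 for K562 and 1.42 and 1.19 for HEK293E, and on library totals the 21 ratios ranged from 2.49 to 4.85, when the median of all hairpins was −1.26.

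**Figure D5:**
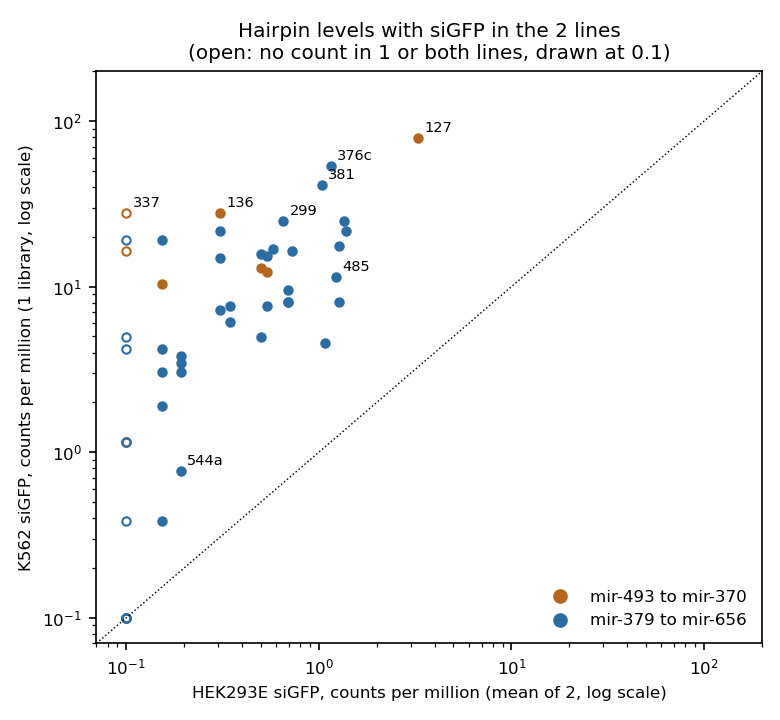
CPM of the library total with siGFP in HEK293E (horizontal, mean of 2 libraries) and K562 (vertical, 1 library) for each hairpin on log scales, with proximal hairpins in brown, distal ones in blue, open points for hairpins with no count in 1 or both lines, drawn at 0.1, and a dotted line of equal levels. Most points lie above the line, hsa-mir-127 is the most abundant in both lines, and no hairpin with a count in K562 falls below the line.

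The most abundant members in K562 were hsa-mir-127, with 207 counts in siGFP and 311 in siERH-5, hsa-mir-376c, with 140 and 200, and hsa-mir-381, with 107 and 157. They were followed by hsa-mir-136 (73 and 128) and hsa-mir-337 (73 and 118), the latter of which had 2 counts in siERH-5 and none elsewhere in HEK293E. Counts were higher with siERH-5 in all 5, and so was the library total, at 3320017 against 2613890. At least 10 counts were reached by 36 members with siGFP and by 33 with siERH-5.

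In K562 the pooled level on library totals was close between siERH-5 and siGFP, 2094 counts against 1639, or 631 against 627 CPM. The ratio of rates was 1.01 (0.942 to 1.07), with 0.945 (0.873 to 1.02) for the distal and 1.15 (1.02 to 1.29) for the proximal hairpins. TMM scaling, with factors of 0.907 for siGFP and 1.10 for siERH-5, would lower each of these ratios, so they depend on the scaling. With TMM, the median log2 ratio was −0.04 over the 7 proximal members compared, 3 of them above 0. It was −0.11 over the 29 distal members compared, 11 of them above 0. Of 36 members with a mean of at least 10 counts, none was at least 2-fold higher with siERH-5, where 10.1% of 646 hairpins were, and 6 were at least 2-fold lower, where 6.81% were. These 6 were all distal, namely hsa-mir-134 (20 counts with siGFP and 3 with siERH-5), hsa-mir-758 (19 and 5), hsa-mir-299 (65 and 32), hsa-mir-494 (65 and 43), hsa-mir-379 (50 and 33) and hsa-mir-487b (44 and 29). On library totals in place of TMM, 3 of the 6 were at least 2-fold lower. The median log2 ratio was −0.09 over the 36 members and 0.11 over all hairpins, and on library totals 0.18 and 0.37, so the members' sign depends on the scaling. With 1 library a group there is no replicate check, and the values compare 2 libraries.

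Of the 16 hairpins that were higher in HEK293E, 15 could be compared in K562, and 9 of them had a log2 ratio above 0 there (12 on library totals). The hairpin hsa-mir-485 went from 30 to 54 counts between the siGFP and siERH-5 libraries of K562, a ratio of 1.17 with a counting interval of 0.732 to 1.89. The interval for hsa-mir-376c was 0.741 to 1.16 around 0.925, and that for hsa-mir-379 was 0.267 to 0.676 around 0.427. The hairpin hsa-mir-544a stood at 2 counts in the siGFP library and 0 in the other, under the floor of 3 counts, and no ratio is given for it here. Whether the response differed between HEK293E and K562 was not tested, since K562 has 1 library for each siRNA.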

How the data were processed

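Small RNAs of 18 to 30 nucleotides were sequenced in 9 libraries, per the labels' protocols. The deposited count table gives whole-number counts per hairpin, and the second deposited table gives RPM values, which the authors made as 1 added count over the library total plus 1485 (largest relative difference 1.1e-09). Cutadapt, Bowtie2, bedtools and hg38 are named in the submitters' processing notes, without versions, and how reads of identical hairpins were shared is not given in the sources used here. The copies hsa-mir-329-1 and hsa-mir-329-2 had the same count as each other in each of the 9 libraries. Both are in the pools and member counts, where they do not count as 2 independent members. Blank cells were read as 0.

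Counts were tested with edgeR 4.0.16 in R 4.3.3 (TMM scaling, quasi-likelihood, no replicate term), with hairpins at a mean of 10 counts or more, Benjamini-Hochberg adjustment at 0.05 over all hairpins tested, and a fit without the filter. Positions come from GENCODE 29 and mature sequences from RefSeq. Single-library ratios used log2(CPM + 1) and a 2-fold limit. Intervals are exact at 95%. DESeq2 1.42.0 and limma 3.58.1 were alternatives. Replicate differences correlated across siRNAs (0.69, 0.48 and 0.52 over 773 hairpins), so the numbers pair the HEK293E libraries, a pairing that comes from the labels' experimental groups and these correlations. Named hairpins are the 12 most abundant in HEK293E, those past the threshold, the 5 most abundant in K562, those gained or lost and near-identical copies. Others were named after their values were seen. Members and lists were chosen with earlier results of these data known.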

Additional observations from a re-analysis of the deposited data

Results flagged for a closer look

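In 4 of 27 sets of control values in HEK293E, 1 library lay far from the other 3. The limit used is passed by chance in about 1 in 20 sets of continuous values, a rate that does not carry over to these sets, since each holds 0 counts in 3 libraries and 1 or 2 counts in the other. In TMM-scaled CPM, siGFP replicate 1 stood at 0.571 for hsa-mir-136 and at 0.286 for both hsa-mir-1185-2 and hsa-mir-487a, and siGFP replicate 2 stood at 0.421 for hsa-mir-544a, with the other 3 controls at 0 in each set.

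For 7 distal hairpins, all 3 siERH libraries of HEK293E were above all 4 controls, whereas the single siERH-5 library of K562 was below its siGFP library. The K562 log2 ratios were −1.14 for hsa-mir-379, −0.029 for hsa-mir-411, −0.11 for hsa-mir-376c, −0.51 for hsa-mir-376a-1, −0.57 for hsa-mir-376a-2, −0.073 for hsa-mir-381 and −0.88 for hsa-mir-544a, the last from 2 counts and 0. On library totals in place of TMM, 3 of the 7 turned positive, at 0.24 for hsa-mir-411, 0.17 for hsa-mir-376c and 0.20 for hsa-mir-381. The difference between the lines was not tested.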

How the results depend on the processing

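With siERH in HEK293E, 4 members were called with the filter, 16 without it and 15 with a filter at a mean of 3 counts. The last 2 settings test more members. Leaving out 1 library gave 5 to 17 calls without the filter, the lowest without siERH-5. With siERH-3 alone, 3 were called with the filter, 5 without it, 9 at a mean of 3 counts, and 1 to 3 when 1 library was left out. With the replicate block, which pairs libraries of the same replicate, 4 members were called with the filter, 17 without it (all 16 and hsa-mir-409), and 9 for siERH-3 without the filter. For siControl against siGFP the block gave 72 higher and 61 lower hairpins with the filter, which no member passed. Without the filter it gave 62 higher and 45 lower of 1385 hairpins, and none of the 42 members tested was called. DESeq2 without the filter called 14 of the 16. The unfiltered fits with left-out libraries, library totals, DESeq2, GC or the block were chosen after seeing the data. In K562, 3 members in place of 6 were at least 2-fold lower on library totals, and 3 with a pseudocount of 5 CPM.

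At a minimum of 3 counts, the controls detected 9 (siGFP) and 9 (siControl) members in replicate 1 and 7 and 9 in replicate 2. At 10 counts they detected 1, 1, 0 and 0, siERH-3 detected 9 and 10, and siERH-5 detected 18. Without its most abundant member, the pool held 71 counts in siGFP replicate 1, 230 and 209 with siERH-3, 438 with siERH-5 in HEK293E, and 1432 and 1783 in K562. With 1 copy per hairpin name the K562 pools held 1560 and 2003. Most members have fewer than 10 counts in HEK293E libraries, which limits single-hairpin statements there.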
